A study of Mus with 17 samples.

Results

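Amino acids cross the membranes of liver cells through carrier proteins of several families, and the genes described here are those of 6 families named by symbol: Slc1 (7 genes, carriers of glutamate and of small neutral amino acids), Slc3 (2 genes, heavy chains), Slc7 (15 genes, cationic carriers and light chains), Slc36 (4 genes, proton-coupled carriers), Slc38 (11 genes, sodium-coupled neutral carriers) and Slc43 (3 genes, facilitative carriers). Every gene in the files whose symbol was one of these roots followed by a letter a and a number was taken, whatever its level, which gave 42 of 24937 genes. The choice used names only and no measured value.

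Whole liver RNA was sequenced from 17 male mice of the strain C57BL6/JBomTac, 1 library per mouse. The 8 western diet mice were fed western diet for 52 weeks, with fructose at 42 g/L in their drinking water, which the labels give as a way to induce advanced steatohepatitis (NASH). The 9 chow mice were of the same age, ate standard chow and drank plain water; all 17 had free access to food and water and fasted overnight before death. The source name of all 17 samples reads western diet, so the diet was taken from the treatment label. WD and chow followed by a number name a library by its diet and replicate.

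The heavy chains of the Slc3 family are single-pass glycoproteins that carry the light chains of the Slc7 family to the membrane, where the light chain does the transport. Carriers of the Slc38 and Slc1 families use the sodium gradient to concentrate amino acids in the cell, while the Slc7 light chains mostly exchange 1 amino acid for another. Liver takes up alanine, glutamine and arginine from portal blood for glucose and urea synthesis, and hepatocytes around the central vein take up glutamate and ammonia for glutamine synthesis. Several of these carriers sit in the lysosome and report its amino acid content to the growth kinase complex mTORC1.

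Libraries held 3604212 to 8818386 counts on western diet and 5231166 to 9071908.5 counts on chow, so the level of 3 counts, which a count of 0 allows, was 0.340 to 0.832 CPM on western diet and 0.331 to 0.573 CPM on chow; this covers counting error only. The labelled tissue held its markers: 12 hepatocyte genes summed to 15115 to 25972 CPM on western diet and 18096 to 26011 CPM on chow. WD 5 and chow 2 stood apart by transcripts of the exocrine pancreas: 22 acinar markers summed to 6905 CPM in WD 5 (other western diet libraries 199.9 to 420.2 CPM) and to 22933 CPM in chow 2 (rest of chow 192 to 751 CPM). Results that these libraries carry are also given without them. CPM are counts relative to the library total, scaled by TMM, a factor that makes the bulk of genes comparable between libraries; they are not corrected for gene length, so levels are compared between mice and not between genes.

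Of the 42 transporter genes 28 passed the low count filter, and of these 10 were higher and 4 lower on western diet (edgeR's quasi-likelihood test, adjusted p under 0.05 over all 13204 genes tested). Of all genes tested 24.8% were higher and 23.6% lower, and 48.4% changed in either direction, so 14 of 28 is close to what all genes gave. The members' median log2 difference was 0.16, against −0.0091 for all genes tested. Without the 2 libraries with pancreatic transcripts 11 members were higher and 3 lower. With library size alone as the scaling 12 members were higher and 3 lower; that scaling moved the median of all genes to 0.12 and the share of rises among all calls to 73.5%, in place of 51.2%.

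By family, 1 of 4 tested Slc1 genes was higher and 1 lower, 1 of 2 Slc3 genes was higher, and 3 of 8 Slc7 genes were higher and 1 lower. Among the others, 1 of 3 Slc36 genes was higher, 3 of 8 Slc38 genes were higher and 2 lower, and 1 of 3 Slc43 genes was higher. Slc1, Slc7 and Slc38 held calls in both directions. Log2 differences ran from −0.83 to 2.14 in Slc1 and from −0.61 to 1.17 in Slc38. In 4 of the 28, namely Slc1a4, Slc7a7, Slc38a1 and Slc43a2, the lowest western diet value exceeded the highest chow value, which held for 7.01% of all genes tested. In none did the highest western diet value fall short of the lowest chow value, which held for 5.03%.

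**Figure D1:**
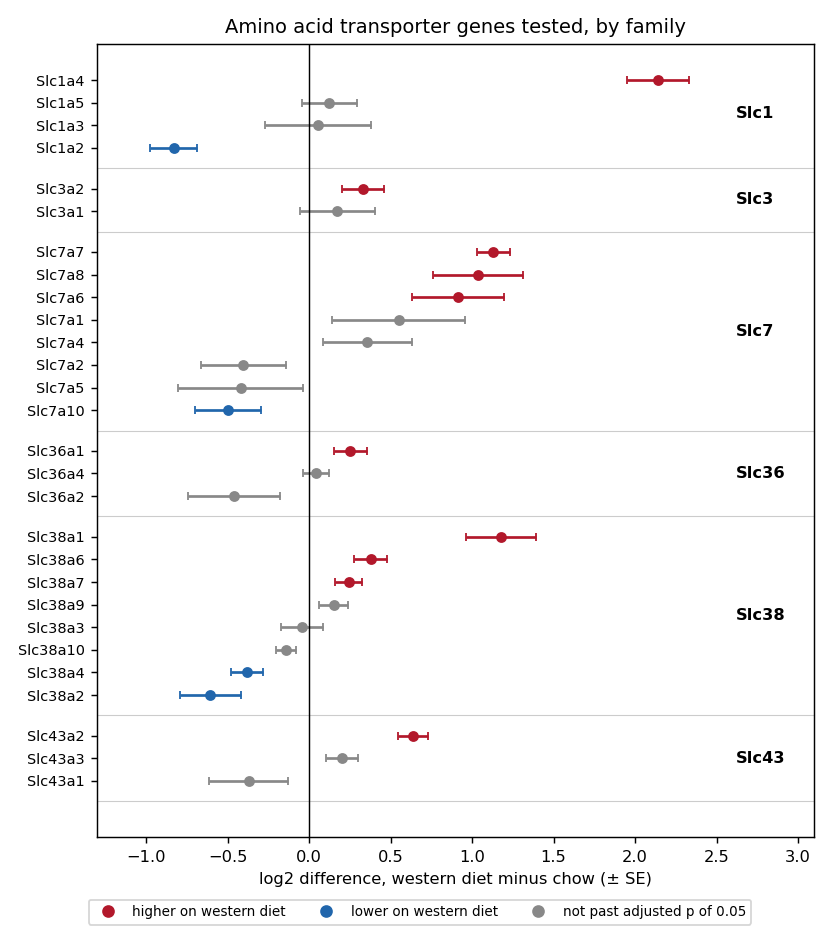
Log2 difference, western diet minus chow, with its SE for the 28 transporter genes tested, grouped by family; red points passed the test as higher, blue as lower, grey did not pass. Slc1a4 had the largest rise at 2.14 and Slc1a2 the largest fall at −0.83, both in 1 family.

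In whole liver a lower level can come from fewer cells of a type or from less RNA per cell, and the 2 cannot be told apart here; this holds for every result. Markers of other cells were counted in the same fit. In it 24.8% of all genes tested were higher, 23.6% lower and 48.4% called in either direction. Of the macrophage and monocyte markers 15 of 15 were higher, with sums of 1320 to 1771 CPM on western diet and 402 to 642 CPM on chow. All 7 tested T and natural killer cell markers were higher (sums of 21.0 to 144 CPM and 10.2 to 33.5 CPM). WD 5 held the 144 CPM and the rest of that diet at most 58.8 CPM. Without the libraries with pancreatic transcripts 5 of the 7 were higher. Also higher were 8 of 9 bile duct markers (232 to 561 CPM and 109 to 192 CPM) and 12 of 14 stellate cell and fibroblast markers (964 to 1701 CPM and 656 to 865 CPM). Spp1 was in both the bile duct and the macrophage list. It was at 333 ± 82.6 CPM on western diet and 75.0 ± 11.7 CPM on chow, a large part of the bile duct sums. Of 12 hepatocyte markers 4 were lower and none was higher, with 8 not past the test. All 4 tested neutrophil markers (sums of 20.6 to 105 CPM on western diet and 7.48 to 14.9 CPM on chow) and 7 of 8 markers of proliferating cells (36.3 to 92.9 CPM and 16.5 to 41.1 CPM) were higher. Other lists were mixed: 5 of 9 Kupffer cell markers were higher and 3 lower, with sums of 610 to 1133 CPM on western diet and 439 to 726 CPM on chow. Among them Cd163 was 20.03-fold lower and Marco 7.66-fold lower, while Cd5l was 2.29-fold higher (390 CPM on western diet and 170 CPM on chow). Of 11 endothelial markers 3 were higher and 2 lower, of 10 adipocyte markers 2 higher and 4 lower, of 7 erythroid markers 2 lower, and of 9 B and plasma cell markers 2 higher, none of them without the libraries with pancreatic transcripts. Calls among hepatocyte, endothelial, erythroid and B and plasma cell markers were no more frequent than the 48.4% of all genes. None of the 17 tested acinar markers passed. No marker that was in the files was at 0 in all libraries. Their part in the results below was not tested.

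The sodium-coupled carriers of glutamate and neutral amino acids, the Slc1 family, held both the largest rise and the largest fall. Slc1a4, which encodes the exchanger ASCT1 for serine, alanine, cysteine and threonine, was at 17.7, 24.8 and 54.1 CPM (lowest, median and highest library) on western diet, against 4.93, 6.56 and 7.94 CPM on chow. The diets did not overlap, and WD 4 stood above the other western diet libraries. The rise was 4.41-fold (28.4 ± 11.6 CPM on western diet and 6.395 ± 1.07 CPM on chow, SD, n = 8 and 9; log2 difference 2.14 ± 0.19, SE; adjusted p = 5.67e-08). Slc1a4 lies on chromosome 11 of mm10, 20302180 to 20332713.

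Slc1a2 encodes GLT-1, the glutamate carrier that in liver is found in hepatocytes next to the central vein. Its level was 205, 234 and 392 CPM on western diet, against 349, 429 and 671 CPM on chow. Of the 8 western diet libraries 7 lay below all chow libraries, and WD 3 was the exception. The level was 1.78-fold lower (log2 difference −0.83 ± 0.14, SE; adjusted p = 9.09e-05), and −0.94 without WD 3 (adjusted p = 7.00e-06). The gene spans 102658239 to 102790784 on chromosome 2 and overlaps the transcript Gm13872, with a median of 65.5 counts, by 3110 bases, so part of its counts is uncertain.

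The other Slc1 genes that were tested, Slc1a5 and Slc1a3, did not pass. Slc1a5, which encodes the glutamine exchanger ASCT2, was at 29.4 ± 7.09 CPM on western diet and 26.9 ± 8.76 CPM on chow (adjusted p = 0.577). Slc1a3, the glutamate carrier GLAST, was at 3.002 ± 1.61 CPM and 2.85 ± 1.48 CPM, and its log2 difference of 0.055 changed sign with limma-voom and when WD 3, WD 4, WD 5, chow 1 or chow 6 was left out (−0.13 to −0.0054).

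**Figure D2:**
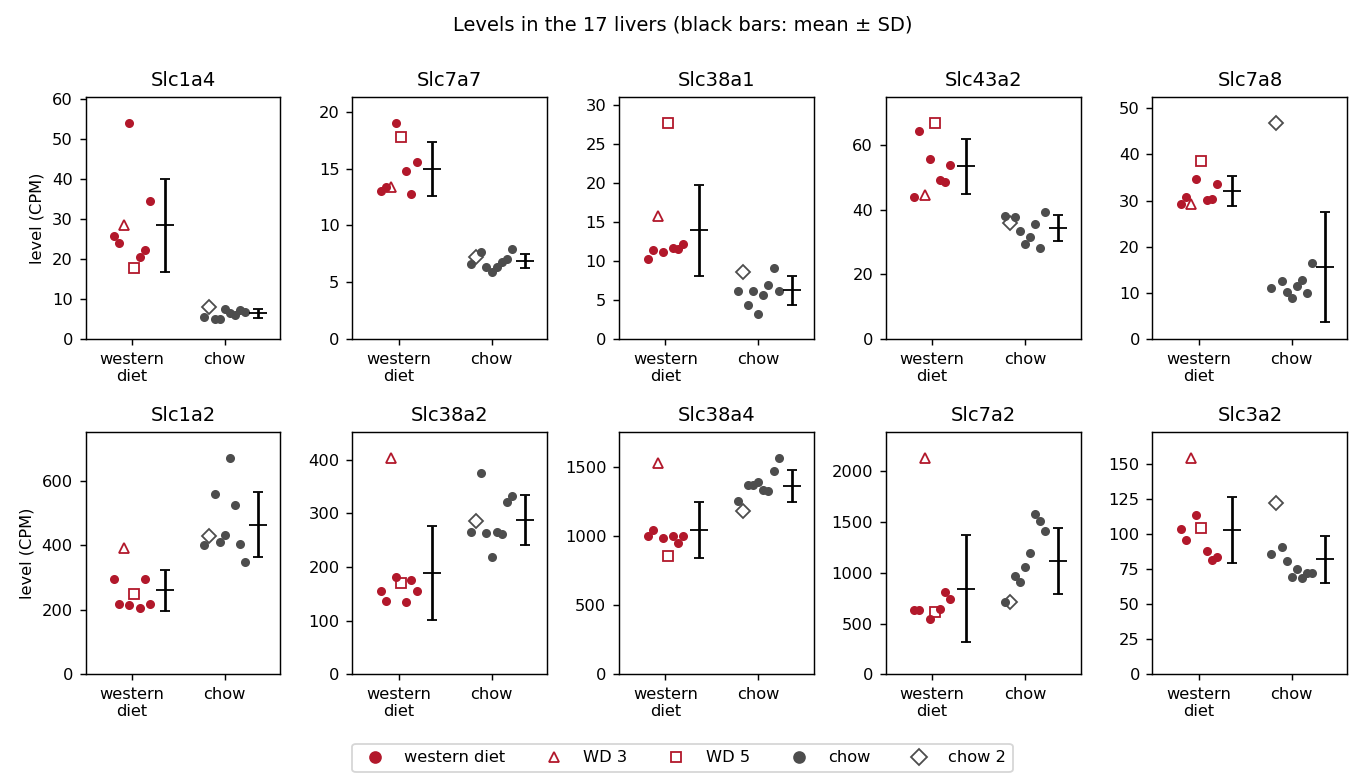
Level in CPM in each of the 17 livers for 10 transporter genes, western diet left and chow right, with the mean ± SD in black; open triangles mark WD 3, open squares WD 5 and open diamonds chow 2. Slc1a4, Slc7a7, Slc38a1 and Slc43a2 did not overlap between diets, while WD 3 lay among or above the chow libraries in Slc38a2, Slc38a4 and Slc7a2.

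Both heavy chains were measured. Slc3a2 encodes 4F2hc (CD98), the partner of most light chains, and was at 81.7, 99.9 and 155 CPM on western diet, against 68.7, 75.2 and 123 CPM on chow. All 8 western diet libraries lay above the chow median, but the diets overlapped through chow 2, the highest of chow at 123 CPM against 68.7 to 91.4 CPM in the other 8. The rise was 1.26-fold (log2 difference 0.33 ± 0.13, SE; adjusted p = 0.0426). It was near the threshold: it did not pass when any 1 of 10 libraries was left out (WD 1, 3, 4 or 5, or chow 4 to 9; adjusted p = 0.0565 to 0.101, log2 difference 0.22 to 0.33), nor with no low count filter. Without the 2 libraries with pancreatic transcripts the log2 difference was 0.42 (adjusted p = 0.00723).

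Slc3a1 encodes rBAT, the heavy chain whose loss causes cystinuria in humans. Its mean differed little between the diets, at 137 ± 72.2 CPM on western diet and 121 ± 13.1 CPM on chow (adjusted p = 0.565), but its spread was wider on western diet. WD 3 and WD 4 held 239 and 254 CPM and WD 6 and WD 8 held 138 and 135 CPM, while WD 1, WD 2, WD 5 and WD 7 held 75.0, 85.9, 83.8 and 82.2 CPM, all 4 below the lowest chow library. The SD of its log2 level was 0.70 on western diet and 0.16 on chow, a ratio of 4.48; 0.0757% of the genes tested had a higher ratio, and the median over all of them was 0.975. Slc3a1 shares 1731 bases with Prepl, which held a median of 559 counts. Its partner light chain Slc7a9, which forms the cystine carrier of kidney and gut with it, had at most 1 count in any library.

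The light chains that pair with Slc3a2 did not move alike. Slc7a7 encodes y+LAT1, the exporter of lysine and arginine whose loss causes lysinuric protein intolerance in humans and which macrophages also express. It was at 12.8, 14.1 and 19.0 CPM on western diet, against 5.90, 6.82 and 7.89 CPM on chow. No western diet library reached down to the highest chow library. The rise was 2.19-fold (log2 difference 1.13 ± 0.10, SE; adjusted p = 4.15e-08), and it shares 228 bases with Oxa1l.

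Slc7a8, which encodes LAT2, a carrier of large and small neutral amino acids, was at 29.2, 30.6 and 38.7 CPM on western diet, against 8.97, 11.5 and 46.9 CPM on chow. The highest chow value was that of chow 2, and the other 8 chow libraries held 8.97 to 16.4 CPM, all below every western diet library. The rise was 2.05-fold with all libraries (log2 difference 1.04 ± 0.27, SE; adjusted p = 0.00480) and 1.41 on the log2 scale without the 2 libraries with pancreatic transcripts (adjusted p = 1.34e-08). Slc7a7 and Slc7a8 lie on chromosome 14, 302 kb apart with 23 annotated genes between them.

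Slc7a6 encodes y+LAT2, a second exchanger of cationic for neutral amino acids. It was at 2.51, 2.89 and 7.71 CPM on western diet, against 1.09, 1.55 and 4.12 CPM on chow, where chow 2 was the highest. WD 5 was the highest of western diet, and that library also held the largest sums of B and plasma cell markers (477 CPM, with at most 208 CPM in the rest of that diet) and of T and natural killer cell markers (144 CPM, against at most 58.8 CPM). The rise was 1.89-fold (adjusted p = 0.0116), and the log2 difference was 0.63 without WD 5 (adjusted p = 0.0364) in place of 0.91. It was 1.15 without chow 2 (adjusted p = 0.00123) and 0.86 without both of these libraries (adjusted p = 9.16e-04).

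Slc7a10, which encodes Asc-1, a carrier of small neutral amino acids, was at 1.35, 2.99 and 4.06 CPM on western diet, against 2.53, 4.07 and 5.40 CPM on chow. It was 1.41-fold lower (log2 difference −0.50 ± 0.20, SE; adjusted p = 0.0474). The call was lost when any 1 of 12 libraries was left out (WD 4 to 8, or chow 1 to 5, 7 or 8; adjusted p = 0.0525 to 0.101, log2 difference −0.52 to −0.40), without the 2 libraries with pancreatic transcripts (adjusted p = 0.0674) with library size alone (adjusted p = 0.144), without filtering on low counts (adjusted p = 0.05496) and with counts doubled (adjusted p = 0.0503). It also shares 239 bases with Lrp3, which held a median of 294 counts.

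Slc7a5, which encodes LAT1, the main carrier of leucine and other large neutral amino acids into dividing cells, did not pass. It was at 4.03, 6.66 and 10.04 CPM on western diet, against 3.41, 5.60 and 29.4 CPM on chow. Chow 2 held the 29.4 CPM and the next chow library 10.8 CPM. The log2 difference was −0.42 with all libraries (adjusted p = 0.388) and 0.12 without chow 2 (adjusted p = 0.685). Slc7a11, which encodes the cystine importer xCT, did not pass the filter: it had 4 to 21 counts on western diet and 0 to 3 counts in 8 chow libraries, with 23 counts in chow 2. Western diet libraries held 0.474 to 2.20 CPM, and chow libraries other than chow 2 held 0.00 to 0.579 CPM. With no low count filter its log2 difference was 1.24 (edgeR, adjusted p = 0.108).

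The cationic carriers of the Slc7 family were the next group. Slc7a2 encodes CAT-2, whose liver form takes up arginine, lysine and ornithine at high concentrations. It was at 550, 640 and 2132 CPM on western diet, against 711, 1063 and 1581 CPM on chow. WD 3 held the 2132 CPM, above every other library, while the remaining 7 western diet libraries held 550 to 816 CPM. The log2 difference was −0.40 ± 0.26 (SE; adjusted p = 0.216) with all libraries, and −0.76 without WD 3 (adjusted p = 7.64e-04). The gene spans 40862341 to 40922070 on chromosome 8.

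Slc7a1 encodes CAT-1, the widely expressed cationic carrier that adult hepatocytes hold little of. It was at 4.25, 6.72 and 12.5 CPM on western diet, against 1.35, 4.23 and 19.3 CPM on chow, and the top value in either diet was that of the library with pancreatic transcripts. The log2 difference was 0.55 ± 0.41 (SE; adjusted p = 0.281), and 1.19 without chow 2 (adjusted p = 3.82e-04). Leaving out WD 5 as well gave 1.03 (adjusted p = 7.18e-04). With all libraries limma-voom gave 0.97 (adjusted p = 0.0195). DESeq2 gave 1.07 (adjusted p = 6.36e-05), but its default settings, used here, can replace outlying counts in groups of this size. Whether it replaced the count of chow 2 was not checked, so this value may not rest on all libraries. Slc7a4, a relative with no established substrate, was at 2.15 ± 0.962 CPM on western diet and 1.73 ± 0.660 CPM on chow (adjusted p = 0.298).

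**Figure D3:**
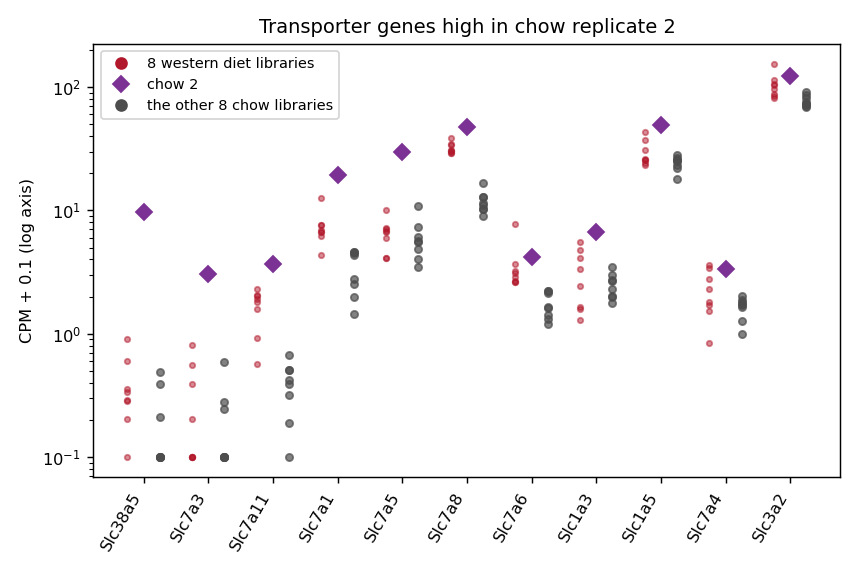
Level plus 0.1 CPM, on a log axis, of 11 transporter genes picked from those in which chow replicate 2 was the highest chow library. Red points are the 8 western diet libraries, purple diamonds chow 2 and grey points the other 8 chow libraries. Not shown are Slc1a4 (7.94 CPM in chow 2, at most 7.48 CPM in the other 8) and Slc38a10 (226 and at most 222 CPM), where chow 2 was highest by little. Slc7a13 and Slc7a14, with at most 3 counts, are also left out. Slc38a5 was at 9.57 CPM in chow 2, and at most at 0.386 CPM in the remaining 8.

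Chow 2 was the highest of the 9 chow libraries in 10 of the 28 tested members. Beside those above, it held 49.0 CPM of Slc1a5, where the rest of chow held 18.0 to 27.8 CPM. Slc38a5 and Slc7a3, which were not tested, were also high in it. Slc38a5, which encodes the glutamine carrier SNAT5, had 61.5 counts in chow 2 and 0 to 2 counts in the other chow libraries, and 0 to 7 counts on western diet, the most in WD 5. Slc7a3, a cationic carrier known mainly from brain, had 19 counts in chow 2 and 0 to 3 counts in the rest of chow, and 0 to 4 counts on western diet. Whether these counts came from pancreas was not tested.

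In the Slc38 family, Slc38a4 (SNAT4) and Slc38a2 (SNAT2) encode the sodium-coupled importers of alanine and other neutral amino acids known as system A. Slc38a4 was at 859, 1001 and 1524 CPM on western diet, against 1177, 1367 and 1563 CPM on chow. Again 7 of 8 western diet libraries lay below all chow libraries, with WD 3 the exception at 1524 CPM. The level was 1.302-fold lower (log2 difference −0.38 ± 0.096, SE; adjusted p = 0.00273), and −0.48 without WD 3.

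Slc38a2 was at 135, 163 and 403 CPM on western diet, against 219, 265 and 375 CPM on chow. WD 3, at 403 CPM, lay above every chow library, and the other 7, at 135 to 181 CPM, lay below every chow library. The level was 1.52-fold lower (log2 difference −0.61 ± 0.19, SE; adjusted p = 0.0127), and −0.86 without WD 3 (adjusted p = 1.21e-06).

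Slc38a1, which encodes SNAT1, the system A carrier of brain and of proliferating lymphocytes, went the other way. It was at 10.2, 11.6 and 27.7 CPM on western diet, against 3.15, 6.10 and 9.06 CPM on chow, without overlap. WD 5 held the 27.7 CPM and the other 7 western diet libraries 10.2 to 15.7 CPM. The rise was 2.26-fold (log2 difference 1.17 ± 0.21, SE; adjusted p = 1.74e-04), and 0.95 on the log2 scale without WD 5 (adjusted p = 1.37e-04). The 3 system A genes are neighbours on chromosome 15: Slc38a1 spans 96571418 to 96643438, Slc38a2 follows after 44.0 kb and Slc38a4 after a further 295 kb. Of the 3, Slc38a1 rose, and Slc38a2 and Slc38a4 fell.

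Slc38a3 encodes SNAT3, the glutamine carrier of hepatocytes (system N), and did not pass. It was at 664, 882 and 1090.9 CPM on western diet, against 662, 903 and 1313 CPM on chow (log2 difference −0.042 ± 0.13, SE; adjusted p = 0.8098), and its sign turned with library size alone (0.076).

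The remaining Slc38 genes tested include lysosomal ones. Slc38a7, which encodes a lysosomal exporter of glutamine and asparagine, was at 48.4 ± 4.99 CPM on western diet and 40.9 ± 5.41 CPM on chow, 1.18-fold higher (adjusted p = 0.0189). Slc38a6 was at 14.4 ± 2.17 CPM on western diet and 11.1 ± 1.30 CPM on chow, 1.298-fold higher (adjusted p = 0.00513); 7 of 8 western diet values exceeded the highest chow value, and the gene shares 237 bases with Trmt5. Slc38a9, the lysosomal arginine sensor that acts on mTORC1, was at 23.6 ± 3.09 CPM on western diet and 21.2 ± 2.52 CPM on chow (adjusted p = 0.178). Slc38a10 was at 182 ± 15.2 CPM and 201 ± 15.5 CPM (log2 difference −0.14, adjusted p = 0.0655), and passed when WD 4 was left out (−0.17, adjusted p = 0.0330) and by DESeq2 (−0.15, adjusted p = 0.0255).

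Of the proton-coupled Slc36 genes, Slc36a1 (PAT1), a carrier of glycine, alanine and proline on lysosomes and brush borders, was at 47.0, 71.4 and 79.6 CPM on western diet, against 40.3, 60.3 and 66.3 CPM on chow. Of the western diet libraries 6 of 8 lay above all chow libraries, while WD 3 was the lowest. The rise was 1.19-fold (log2 difference 0.25 ± 0.10, SE; adjusted p = 0.0451). It was lost with DESeq2, limma-voom, no low count filter and doubled counts, and when any 1 of 10 libraries was left out (WD 1, 2, 4, 6, 7 or 8, or chow 1, 3, 7 or 8; adjusted p = 0.0515 to 0.0929, log2 difference 0.20 to 0.26). Slc36a4 was at 25.7 ± 2.56 CPM on western diet and 24.98 ± 3.15 CPM on chow (adjusted p = 0.695). Slc36a2, a glycine and proline carrier, was at 2.03 ± 0.582 CPM and 2.80 ± 1.34 CPM (adjusted p = 0.1895). Slc36a1, Slc36a2 and Slc36a3 form a cluster on chromosome 11.

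In the Slc43 family, Slc43a2 encodes LAT4, a facilitative carrier of branched-chain amino acids, phenylalanine and methionine. It was at 43.9, 51.5 and 66.9 CPM on western diet, against 28.0, 35.5 and 39.1 CPM on chow. The diets did not overlap. The rise was 1.56-fold (log2 difference 0.64 ± 0.092, SE; adjusted p = 1.25e-05). Slc43a1, which encodes LAT3, a carrier of the same substrates, was at 3.50 ± 0.517 CPM on western diet and 4.56 ± 2.15 CPM on chow (log2 difference −0.37 ± 0.24, SE; adjusted p = 0.214). Slc43a3, whose product carries purine nucleobases and not amino acids, was at 62.9, 92.6 and 115 CPM on western diet, against 61.8, 80.0 and 90.5 CPM on chow. The diets overlapped (log2 difference 0.20 ± 0.097, SE; adjusted p = 0.0908), and the gene passed with library size alone (0.34, adjusted p = 0.01896) and without WD 1 or WD 3 (0.26 and 0.24 in log2, adjusted p = 0.0167 and 0.0386). Slc43a1 and Slc43a3 lie 73.0 kb apart on chromosome 2.

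**Figure D4:**
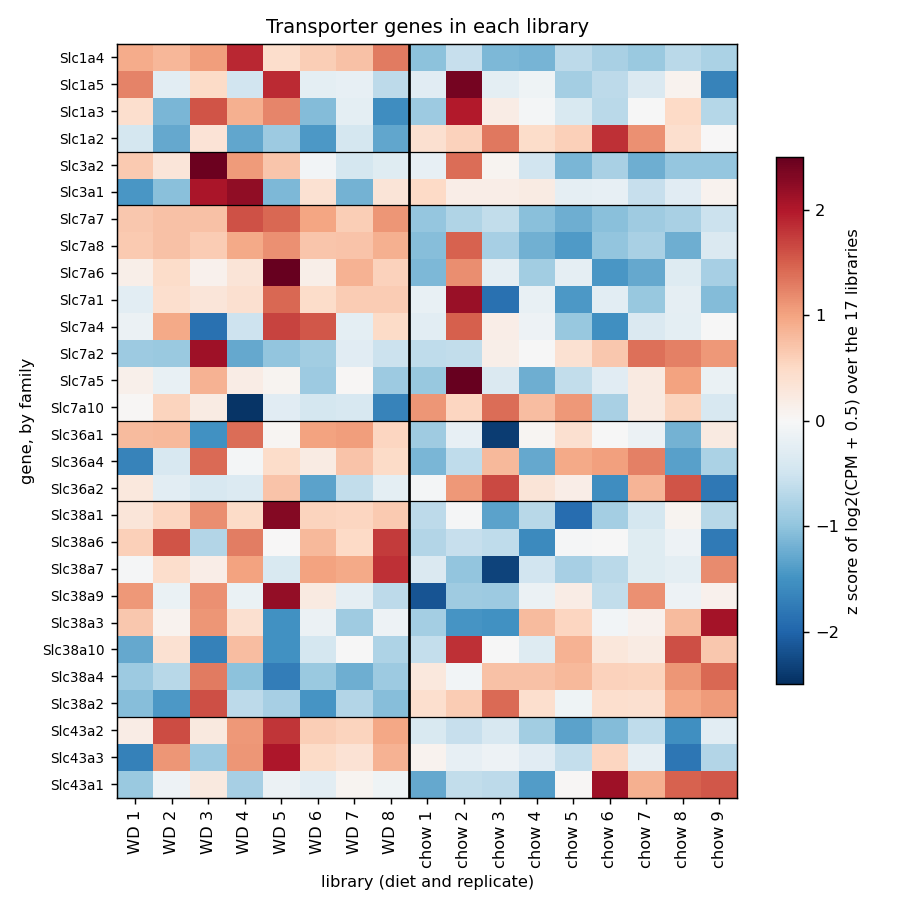
The 28 tested transporter genes (rows, by family) in the 17 libraries (columns, western diet left of the black line and chow right of it), as z scores of log2(CPM + 0.5) over all libraries. WD 3 was the highest western diet library in 10 genes, WD 5 in 10, and chow 2 the highest chow library in 10.

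WD 3 and WD 5 together supplied the highest western diet value in 20 of the 28 tested members, 10 each. For each of the 14 members called, a library was placed on a scale with the chow mean at 0% and the mean of the remaining western diet mice as full distance. The median over these genes was 55.3% for WD 3 and 84.1% to 136% for the other 7, and in single genes WD 3 ran from −83.8% to 393%. WD 3 also held the largest summed level of periportal hepatocyte genes on western diet, at 11224 CPM, against 5197 to 7417 CPM in the other 7. It held the largest sum of arginine enzymes too, at 4943 CPM, against 2731 to 3781 CPM. These lists share Ass1, Asl, Arg1 and Otc, so their sums are partly the same counts. Bile duct markers, Spp1 among them, summed to 232 CPM in WD 3 and to 375 to 561 CPM in the other 7. Stellate cell and fibroblast markers summed to 964 CPM in WD 3, against 1047 to 1701 CPM.

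Because light chains need Slc3a2 to reach the membrane, their levels were set against it across mice within each diet, on log2(CPM + 0.5). None of the 10 relations passed an exact two-sided permutation test after adjustment over the 10, and 3 had an unadjusted p under 0.05 by Pearson's r. The strongest was Slc7a5 on western diet (r = 0.81, exact p = 0.0138, adjusted p = 0.138; Spearman's rho = 0.83, exact p = 0.0154, adjusted p = 0.154; n = 8), which was r = 0.95 without WD 3 and WD 7, the libraries farthest from the median of Slc3a2. With WD 5 left out it was r = 0.81 (n = 7), and 0.46 when WD 3 and WD 4, then the farthest, were also left out. On chow, Slc7a8 (r = 0.81, exact p = 0.0493, adjusted p = 0.164; rho = 0.27, exact p = 0.493, adjusted p = 0.705; n = 9) and Slc7a6 (r = 0.74, exact p = 0.0407, adjusted p = 0.164; rho = 0.32, exact p = 0.4101, adjusted p = 0.705; n = 9) rested on chow 2, without which r was 0.032 and 0.13 (n = 8). With chow 3 also left out r was −0.15 and −0.29. The other 7 relations had r between −0.14 and 0.61.

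**Figure D5:**
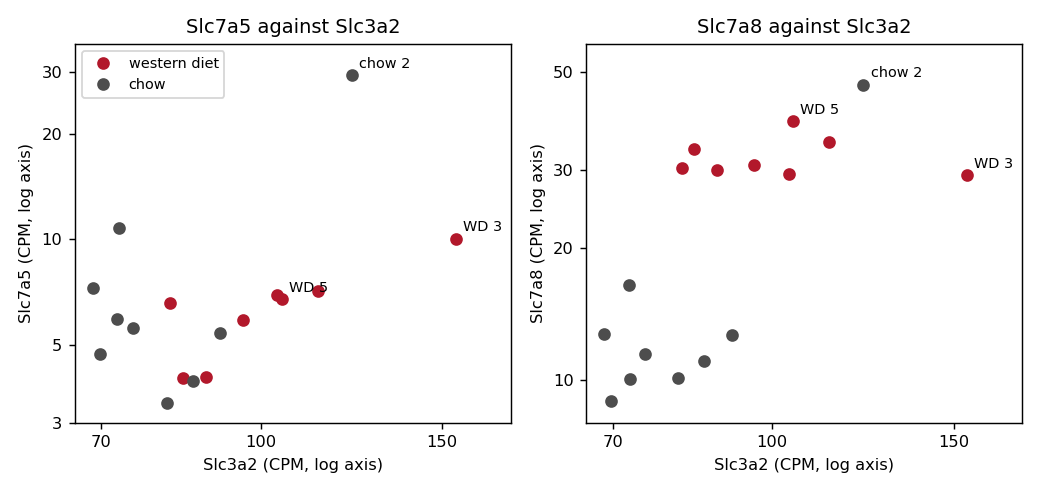
Level of Slc7a5 (left) and Slc7a8 (right) against that of the heavy chain Slc3a2, both in CPM on log axes, 1 point per liver, western diet in red and chow in grey. On western diet Slc7a5 was highest in WD 3, the library with the most Slc3a2; in both panels chow 2 lies apart from the other chow libraries.

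The 14 members that were not tested held few counts. Slc1a1, which encodes the glutamate and cysteine carrier EAAC1 of neurons and kidney, had 2 to 47 counts on western diet and 0 to 2 counts on chow. Its levels were 0.372, 1.14 and 4.92 CPM on western diet, against 0.00, 0.146 and 0.359 CPM on chow, and every chow library lay below the floor of 3 counts. The lowest western diet library, WD 3, had 2 counts, as many as the highest chow libraries, so a separation of the diets is not resolved. WD 7 and WD 1 were the highest, at 4.92 and 4.39 CPM. With no low count filter its log2 difference was 3.56 (edgeR, adjusted p = 1.32e-04), and DESeq2 gave 3.76 (adjusted p = 3.50e-06); both rest on these chow levels below the floor. Slc7a12 was at 0 in all 17 libraries. Apart from Slc1a1, Slc7a11, Slc38a5 and Slc7a3, the other untested members had at most 6 counts in any library.

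Lists of related genes were counted in the same fit, in which 24.8% of all genes tested were higher, 23.6% lower and 48.4% called in either direction; no list was tested against other genes or against another list. Of 6 tested carriers of the plasma membrane from other families 1 was higher, the proline carrier Slc6a7 (3.34-fold, 3.79 ± 2.53 CPM on western diet and 1.13 ± 0.470 CPM on chow, adjusted p = 4.13e-04), and 2 were lower, the glycine carrier Slc6a9 (1.48-fold) and the aromatic amino acid carrier Slc16a10 (1.29-fold). Of 7 mitochondrial carriers none was higher and 2 were lower, the glutamate carrier Slc25a22 (1.71-fold lower; 240 ± 84.9 CPM and 409 ± 59.3 CPM, adjusted p = 8.00e-04) and the aspartate and glutamate exchanger Slc25a13 (1.46-fold lower), and 3 were lower without WD 3. Of 5 further lysosomal carriers 4 were higher and 1 did not pass. Slc15a3, which carries histidine and peptides out of lysosomes of immune cells, rose 2.85-fold (48.6 ± 9.65 CPM and 17.1 ± 2.74 CPM, adjusted p = 9.44e-09), and Mfsd12, needed for cysteine import into lysosomes, rose 1.57-fold; neither overlapped between the diets.

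Among genes of amino acid sensing by mTORC1, 3 of 34 tested were higher and 8 lower, with a median log2 difference of −0.069. The count of lower genes is at the share of all genes (23.6%), that of higher genes is below it (24.8%), and with library size alone 10 were higher and 3 lower. Rragd, a GTPase that recruits mTORC1 to the lysosome, stood out: it was at 19.0, 43.9 and 63.3 CPM on western diet, against 3.74, 6.87 and 11.1 CPM on chow. The rise was 6.06-fold (adjusted p = 1.775e-08). Rptor, the subunit of mTORC1 that binds these GTPases, was 1.502-fold lower (67.9 ± 8.03 CPM and 102 ± 7.71 CPM, adjusted p = 1.60e-06), and Wdr59, of the sensing complex GATOR2, was 1.44-fold lower.

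Genes of the response to amino acid shortage, which the kinase GCN2 and the factor ATF4 switch on, held 10 higher and 2 lower of 29 tested. Calls in either direction were fewer than the 48.4% of all genes, with the share higher above the 24.8% and the share lower below the 23.6% of all genes. The median of these genes was 0.096 in log2. Without the 2 libraries with pancreatic transcripts 13 were higher and 1 lower, without WD 3 10 were higher and 4 lower, and with library size alone 12 were higher and 1 lower. Atf3, a stress-induced factor, rose 6.15-fold (18.9 ± 4.65 CPM on western diet and 3.09 ± 0.844 CPM on chow, adjusted p = 1.83e-09), and Gdf15, a hormone of cell stress, rose 5.54-fold (adjusted p = 1.57e-05). Asns, asparagine synthetase, was 5.94-fold lower at 1.78, 4.39 and 7.62 CPM on western diet, against 7.27, 27.0 and 69.9 CPM on chow (adjusted p = 2.92e-04). Chow 2 was its highest library; without the 2 libraries with pancreatic transcripts the log2 difference was −2.43 in place of −2.57.

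Enzymes that use what these carriers deliver were also counted. Of 23 tested glutamine and glutamate enzymes 3 were higher and 4 lower, which is fewer calls than the 48.4% of all genes. Without WD 3, 2 were higher and 9 lower, and with library size alone 4 and 4. Ornithine aminotransferase Oat was 1.47-fold lower (732 ± 247 CPM on western diet and 1073 ± 114 CPM on chow, adjusted p = 0.00491). Of 15 tested arginine enzymes 2 were higher and 5 lower, close to the 48.4% of all genes, and with library size alone 4 were higher and 3 lower. Leaving out WD 3 gave 2 higher and 7 lower. Argininosuccinate lyase Asl was 1.65-fold lower (348 ± 114 CPM and 574 ± 81.2 CPM, adjusted p = 3.73e-04), and Ddah2, which breaks down methylated arginine, was 1.42-fold higher. Of 16 periportal hepatocyte genes 2 were higher and 7 lower, and 11 were lower without WD 3; of 16 pericentral genes 3 were higher and 4 lower.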

How the data were processed

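Bulk RNA sequencing of whole liver gave 1 file per library. The authors' values, as deposited, are expected counts for each gene symbol, partly non-whole and unscaled. STAR 2.4.1c, HOMER and mm10 are named per the submitters' processing notes; which tool counted, its strand setting and the annotation are not given in the sources used, so overlapping genes can share reads, and transcript lengths were not used here. Each file held 24940 genes, and 3 without values were left out.

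Counts were rounded and tested with edgeR 4.0.16 (R 4.3.3): filterByExpr, TMM factors, robust glmQLFit and glmQLFTest on diet, two-sided, prior count 0.125, Benjamini-Hochberg adjustment over 13204 genes. Differences are western diet minus chow, and CPM use TMM-scaled library sizes. The SE of a log2 difference is its absolute value divided by the square root of the quasi-likelihood F statistic. Each library is taken as 1 mouse, as the series describes, so p-values measure the spread between mice. Scripts were tested on simulated data. Positions come from a RefSeq table of GRCm38.p6 (mm10), in which all 42 genes matched by symbol.

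Transporter genes and lists were chosen with earlier results of these data known. Members past the threshold with a fold of at least 1.5 and the member with the highest mean CPM in each family were described in full, and up to 3 called genes per list were named (1 is not reported here); a few others, such as Slc1a1, were chosen after their values were seen. Alternatives were RLE factors, library size alone, DESeq2 1.42.0, limma-voom (limma 3.58.1), no filter, a minimum of 1 CPM in 8 libraries, no robust estimation, doubled counts, a test against 1.5-fold (glmTreat), and leaving out libraries.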

Additional observations from a re-analysis of the deposited data

Results flagged for a closer look

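In each diet, a tested transporter gene is listed here when its highest or lowest library stood apart from the rest by Dixon's test at 95% on CPM. Chance alone passes that test in about 1 of 20 groups of normally distributed values. Whether CPM were so distributed was not tested, and log2 levels were not used. In all, 56 groups were looked at, 2 per gene, and 16 values stood apart, each the highest of its diet. Chow 2, the library with the most pancreatic transcripts, gave 8 of them: 6.53 CPM of Slc1a3, 49.0 CPM of Slc1a5, 123 CPM of Slc3a2, 19.3 CPM of Slc7a1, 3.27 CPM of Slc7a4, 29.4 CPM of Slc7a5, 4.12 CPM of Slc7a6 and 46.9 CPM of Slc7a8.

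WD 3 gave 4: 155 CPM of Slc3a2, 2132 CPM of Slc7a2, 403 CPM of Slc38a2 and 1524 CPM of Slc38a4. WD 5, the western diet library with pancreatic transcripts and the most T and B cell markers, gave 3: 12.5 CPM of Slc7a1, 7.71 CPM of Slc7a6 and 27.7 CPM of Slc38a1. WD 4 gave 1, Slc1a4 at 54.1 CPM.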

How the results depend on the processing

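Counts of transporter genes stayed within 1.5 times the reported ones in all alternatives but the test against a 1.5-fold change, which left 3 higher and 0 lower (by edgeR without that margin 10 and 4, and by DESeq2 11 and 5), and 1108 higher and 195 lower among all genes. With library size alone 1615 of all genes were lower. Leaving out single libraries gave 8 to 11 higher and 3 to 5 lower transporter genes. Of the 14 calls, 11 passed in all 17 such fits; Slc36a1, Slc3a2 and Slc7a10 did not. Signs turned only in genes that did not pass: Slc1a3 with limma-voom (−0.055) and without WD replicate 3, 4 or 5 or chow replicate 1 or 6 (−0.13 to −0.0054; all single libraries −0.13 to 0.31), Slc3a1 without WD replicate 4 (−0.015; other single libraries up to 0.26), Slc7a5 without both libraries with pancreatic transcripts (0.104) and without chow replicate 2 (0.12; other single libraries down to −0.54), and Slc38a3 with library size alone (0.076) and without WD replicate 5 or chow replicate 9 (0.014 and 0.0398; other single libraries down to −0.092). Apart from what chow 2, WD 3 and WD 5 carry, the cause of these changes was not tested. No paired analysis was possible because no label links a western diet mouse to a chow mouse. The 10 relations with Slc3a2 gave none past the adjustment by exact permutation also with RLE factors, with log2(CPM + 1) and without both libraries.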

Other observations

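Transporter genes differed in how far mice of 1 diet lay apart. The SD of the log2 level was higher on western diet than on chow by a ratio of 4.48 in Slc3a1, 2.18 in Slc1a4, 2.16 in Slc38a2 and 2.04 in Slc38a4, and lowest in Slc7a8 (0.201), Slc43a1 (0.315), Slc7a1 (0.4102) and Slc7a5 (0.455). The median ratio was 1.10 over the 28 tested members and 0.975 over all genes tested. In Slc7a8, Slc7a1 and Slc7a5 the chow spread holds chow 2, and in Slc38a2 and Slc38a4 the western diet spread holds WD 3. No single library stood apart in Slc43a1, whose chow libraries ran from 2.24 to 8.13 CPM, against 2.69 to 4.18 CPM on western diet.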
